A study of Homo sapiens with 6 samples.

Results

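The genes described here encode the sliding clamp PCNA, its loaders RFC1 to RFC5, CHTF18 and DSCC1, and the Okazaki fragment enzymes FEN1 and LIG1. They are 10 of the 58735 genes in the deposited expression table and were taken by gene symbol, not by any measured value. The libraries were made from A549, an established human lung adenocarcinoma line. The tested cells carried a ZBTB16 expression plasmid and the controls carried the plasmid backbone pcDNA3.1 without an insert, with 3 libraries in each group and the same A549 background in both. ZBTB16, also known as PLZF, is a zinc finger transcription factor known mainly as a repressor. The labels give no promoter, dose, time after transfection or share of cells transfected, nor whether each repeat was its own culture. The error terms therefore cover library-to-library spread, part or all of which may be technical. The series title concerns DNA replication, and the comparison asks how the transcripts of clamp loading and Okazaki processing stood when the factor was supplied.

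PCNA forms a ring that closes around DNA and holds the replicative polymerases and many other enzymes on the template. The ring is opened and placed at primer ends by replication factor C, in which the large subunit RFC1 sits with the small subunits RFC2, RFC3, RFC4 and RFC5. A related loader has CHTF18 in place of RFC1 and carries DSCC1, and is known for work on the leading strand and for sister chromatid cohesion. On the lagging strand FEN1 cuts the displaced 5′ flap of each Okazaki fragment and LIG1 seals the remaining nick. In dividing cells most of these genes are known targets of E2F factors at the G1 to S transition.

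The files went with the labels. ZBTB16 had 41881 to 53108 reads in the ZBTB16 libraries and 0 in each empty-vector library. The libraries held 15478010 to 17319971 reads recovered from the deposited values, with 6.02% to 6.54% of them mitochondrial. The extraction text in the labels names retinas, but the retinal gene CRX was at 0 in all 6 libraries. The 10 retinal markers summed to 2.65 to 4.50 FPKM with ZBTB16 and 3.96 to 4.16 FPKM with empty vector, led by OPN1SW at 3.09 and 3.04 FPKM. The 9 epithelial and A549 markers summed to 4190.3 to 4327 FPKM with ZBTB16 and 4298 to 4489.8 FPKM with empty vector, led by ALDH1A1. The lowest of them were EPCAM, at 1.05 to 1.47 FPKM over the 6 libraries, and CDH1, at 6.34 to 7.27 FPKM. Of the markers of immune cells, fibroblasts and endothelium, CD3E and COL1A2 were at 0, and the highest of each kind, CD14, COL1A1 and PECAM1, were at 3.30, 2.01 and 0.136 FPKM with ZBTB16 and at 3.43, 2.06 and 0.134 FPKM with empty vector.

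The sequence before the RefSeq start sites is given first. RefSeq promoters (GRCh38.p14) were found for 9 of the 10 genes, PCNA having a second start further into the gene. Each of these starts lies inside the gene span of GENCODE 29, so part of the sequence before it can be exon of a longer transcript. Annotated exons cover all 250 bases for CHTF18, FEN1 and LIG1, 213 for RFC4 and 100 for RFC3. The 250 bases before each start were searched on both strands for the E2F words TTTCCCGC, TTTCGCGC, TTTGCCGC and TTTGGCGC and for the NF-Y word CCAAT, and no E2F match overlapped a CCAAT match. PCNA, RFC3 and LIG1 each held an E2F word within 250 bases, and in all of them it was TTTCCCGC. Of all 35116 promoters of that length, 2.79% held an E2F word, 32.0% held CCAAT and 1.02% held both. CCAAT was found before PCNA, RFC1, RFC5 and CHTF18. The stretch from -163 to -5 bases from the PCNA start (chr20:5126627-5126785, minus strand) is shown because it carries both kinds of word, and the stretch before RFC1 (chr4:39366376-39366612, minus strand) because RFC1 was the gene whose mean was not lower. The 30 bases around the E2F word are shown for RFC3 (chr13:33818083-33818112, plus strand) and LIG1 (chr19:48170440-48170469, minus strand), where they lie in annotated exons upstream of the RefSeq start, whereas the PCNA and RFC1 stretches hold no annotated exon. All run 5′ to 3′ along the gene's strand, and capitals mark the words on either strand.
PCNA: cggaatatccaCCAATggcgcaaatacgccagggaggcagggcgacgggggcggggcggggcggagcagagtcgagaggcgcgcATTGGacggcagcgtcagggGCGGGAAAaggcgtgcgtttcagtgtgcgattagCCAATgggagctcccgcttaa
RFC1: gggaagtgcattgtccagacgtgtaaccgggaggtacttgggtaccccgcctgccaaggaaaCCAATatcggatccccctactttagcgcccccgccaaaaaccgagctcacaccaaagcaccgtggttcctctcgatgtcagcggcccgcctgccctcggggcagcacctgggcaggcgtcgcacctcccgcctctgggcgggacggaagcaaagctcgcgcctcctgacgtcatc
RFC3: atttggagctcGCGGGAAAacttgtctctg
LIG1: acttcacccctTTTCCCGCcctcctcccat
The E2F word begins at -59 in PCNA, at -55 in RFC3 and at -114 in LIG1. A match is a string of letters in this window and not a measured binding site. RFC2, RFC4 and FEN1 held neither word in this window.

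Transcripts of the clamp, of most loader subunits and of both Okazaki enzymes had lower means in ZBTB16 cells, with differences of -17.8% to -6.78% in FPKM, which is read number scaled to gene length and library size. Of the 10 genes 9 had a negative log2 fold change, as had 51.5% of tested genes, and RFC1 had a positive one. No gene passed over all genes: 0 of 10 were called at a limma adjusted p under 0.05, where 0.008% of the 12499 tested genes were called lower and 0.064% higher. At an unadjusted limma p under 0.05, 6 of the 10 were lower, namely PCNA, RFC2, RFC3, DSCC1, FEN1 and LIG1, against 5.17% of all tested genes, and 0 were higher, against 5.08%. The same 6 had every ZBTB16 value below every empty-vector value, which was so for 8.1% of tested genes, and 0 had every value above, against 8.12%. All 10 had a mean of at least 1 FPKM and entered the test. Their median log2 fold change was -0.16, on the log2(FPKM + 1) scale, beside -0.0031 over all tested genes. The genes were named with earlier results of these data known, so the counts describe them and are not independent evidence of a direction. In whole-culture RNA, fewer cells in S phase and less RNA per cell cannot be told apart.

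**Figure D1:**
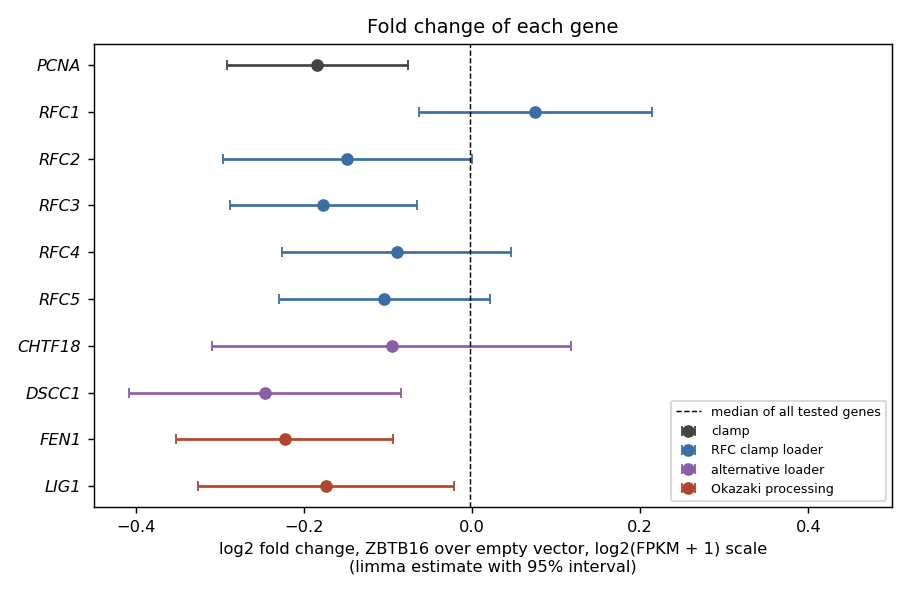
Log2 fold change of each gene, ZBTB16 over empty vector, with its 95% interval from limma (3 libraries in each group), coloured by role; the dashed line is the median of all tested genes. RFC1 alone lies right of the line, at 0.08, and the other 9 points lie between -0.25 and -0.09.

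PCNA (ENSG00000132646, hg38 chromosome 20, 5114953 to 5126626, minus strand) was the most abundant of the set. It stood at 218, 204 and 200.1 FPKM in ZBTB16 libraries 1 to 3, against 242, 234 and 231 FPKM in empty-vector libraries 1 to 3. The groups did not overlap, and ZBTB16 library 1 stood above the other ZBTB16 libraries, nearest to the empty-vector values. The means were 207 ± 9.24 and 236 ± 6.10 FPKM (SD, n = 3 each), a difference of -12.0%. The log2 fold change was -0.18 (SE 0.047, 95% interval -0.29 to -0.08), and limma gave an adjusted p of 0.194. A two-sided exact permutation test gave p = 0.1, below which 3 libraries against 3 cannot go. PCNA was counted from 4945 to 5965 reads per library, for which counting alone gives a coefficient of variation of 1.36%, against 4.46% observed among ZBTB16 libraries and 2.59% among empty-vector libraries. No other gene's exons overlap those of PCNA in GENCODE 29. Of its processed pseudogenes in the table, PCNAP1 and PCNAP3 were at 0 in all libraries and PCNAP4 at 0.0801 FPKM in a single ZBTB16 library.

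**Figure D2:**
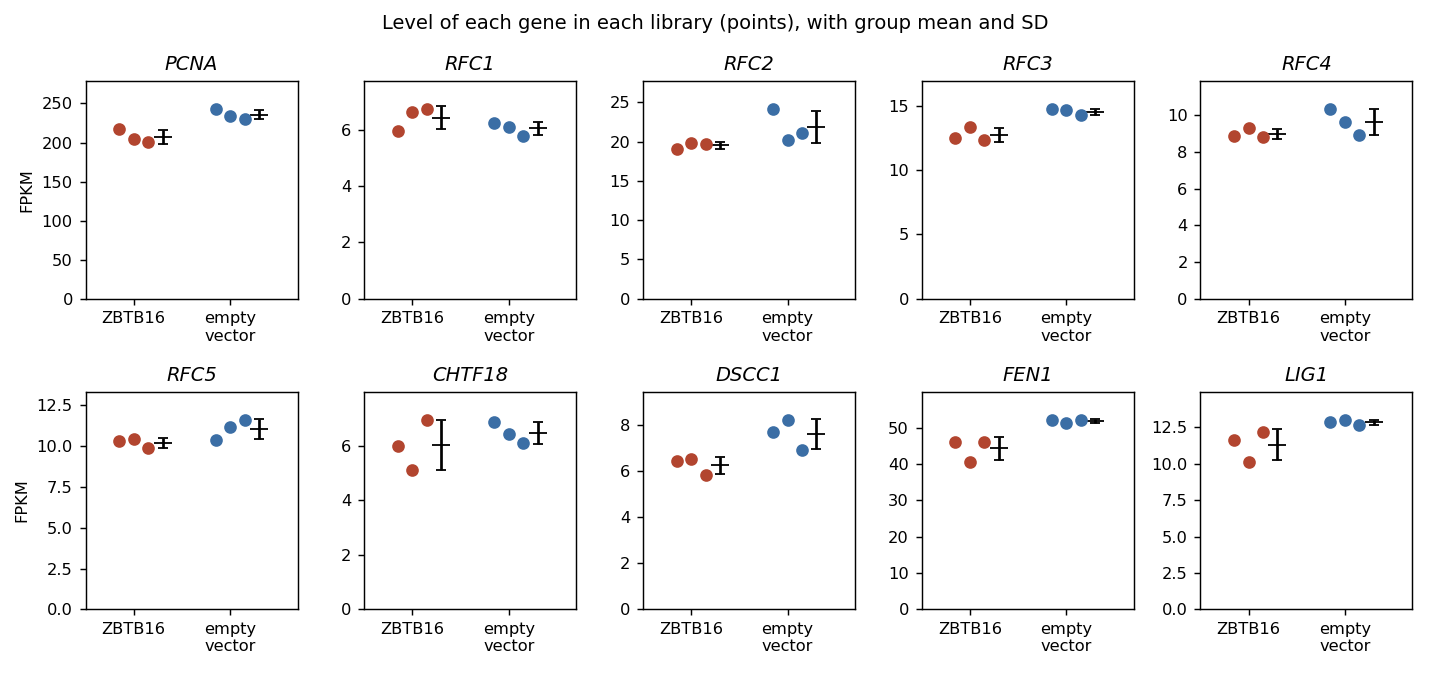
FPKM of each gene in each library, ZBTB16 libraries at left and empty-vector libraries at right in each panel, with the group mean and SD beside the points; each vertical axis starts at 0 and has its own scale. The groups are apart for PCNA, RFC2, RFC3, DSCC1, FEN1 and LIG1 and overlap for RFC1, RFC4, RFC5 and CHTF18.

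Among the replication factor C subunits, the large subunit had a fold change of opposite sign to that of each small subunit. RFC1 (chromosome 4, 39287456 to 39366375, minus strand), the large subunit, which binds DNA, was at 5.96, 6.63 and 6.73 FPKM with ZBTB16 and at 6.26, 6.10 and 5.80 FPKM with empty vector. ZBTB16 libraries 2 and 3 lay above all empty-vector libraries and ZBTB16 library 1 lay among them. The log2 fold change was 0.08 (95% interval -0.06 to 0.21, limma adjusted p = 0.772), an interval that holds both signs. Leaving out a library moved it between 0.05 and 0.12, the highest without ZBTB16 library 1.

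RFC2 (chromosome 7, 74231499 to 74254458, minus strand), an ATP-binding small subunit, was at 19.1, 19.8 and 19.7 FPKM with ZBTB16, against 24.1, 20.3 and 21.1 FPKM with empty vector. The groups did not overlap, but empty-vector library 1 stood well above the other empty-vector libraries. The log2 fold change was -0.15 (SE 0.065, limma adjusted p = 0.487), and -0.08 with that library left out. RFC3 (chromosome 13, 33818049 to 33966558, plus strand), another small subunit of the ring-opening complex, was at 12.5, 13.4 and 12.4 FPKM with ZBTB16, against 14.7, 14.7 and 14.3 FPKM with empty vector. The groups did not overlap, and the means differed by -12.3%. Its log2 fold change was -0.18 (SE 0.049), with limma adjusted p = 0.225.

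RFC4 (chromosome 3, 186789880 to 186807058, minus strand) and RFC5 (chromosome 12, 118013588 to 118033130, plus strand) complete the small subunits. RFC4 was at 8.84, 9.27 and 8.81 FPKM with ZBTB16 and at 10.3, 9.64 and 8.93 FPKM with empty vector. RFC5 was at 10.3, 10.4 and 9.85 FPKM with ZBTB16 and at 10.4, 11.2 and 11.6 FPKM with empty vector. In both genes the groups overlapped, at empty-vector library 3 for RFC4 and at empty-vector library 1 for RFC5. Their log2 fold changes were -0.09 (95% interval -0.23 to 0.05, limma adjusted p = 0.701) and -0.10 (-0.23 to 0.02, limma adjusted p = 0.584). The RFC4 value was -0.04 without empty-vector library 1 and -0.14 without empty-vector library 3.

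The balance of the loader subunits within a library was then compared, a comparison chosen after the values were seen. For each unit of RFC1, RFC2 was at 3.20, 2.99 and 2.93 with ZBTB16, against 3.85, 3.32 and 3.64 with empty vector. RFC3 was at 2.10, 2.02 and 1.84 with ZBTB16, against 2.35, 2.40 and 2.46 with empty vector. RFC4 was at 1.48, 1.40 and 1.31 with ZBTB16, against 1.65, 1.58 and 1.54 with empty vector. These 3 ratios were lower in every ZBTB16 library than in every empty-vector library. The ratio of CHTF18, which is no small subunit, to RFC1 was so as well. It was 1.01, 0.772 and 1.03 with ZBTB16, against 1.10, 1.05 and 1.05 with empty vector. The RFC5 ratio, 1.73, 1.57 and 1.46 against 1.65, 1.83 and 1.99, overlapped at ZBTB16 library 1 and empty-vector library 1. Over the 9 ratios computed, two-sided exact permutation tests gave p = 0.1 at best, and 0.18 after Benjamini-Hochberg adjustment. The ratios given here share RFC1 as denominator and are therefore not independent of each other.

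**Figure D3:**
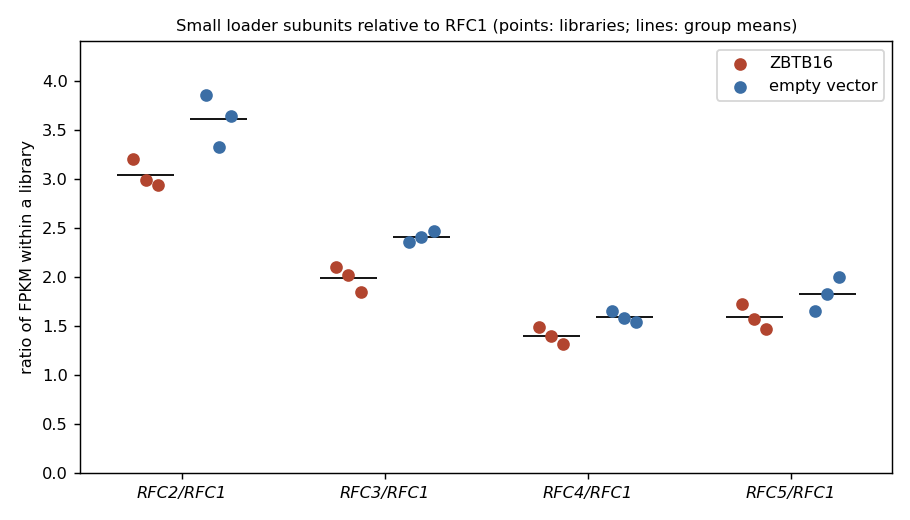
Ratio of the FPKM of each small loader subunit to that of RFC1 within each library, ZBTB16 libraries left of empty-vector libraries, with group means as lines. The RFC2, RFC3 and RFC4 ratios do not overlap between groups, and the RFC5 ratio does.

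CHTF18 and DSCC1 are parts of the alternative loader, and the groups overlapped for CHTF18 and not for DSCC1. CHTF18 (chromosome 16, 788046 to 800737, plus strand), the counterpart of RFC1, was at 5.99, 5.11 and 6.93 FPKM with ZBTB16 and at 6.87, 6.42 and 6.08 FPKM with empty vector. ZBTB16 library 3 was the highest of the 6 libraries and ZBTB16 library 2 the lowest. The coefficient of variation was 15.1% among ZBTB16 libraries and 6.14% among empty-vector libraries, where counting gives 4.03%. Its log2 fold change of -0.10 (95% interval -0.31 to 0.12, limma adjusted p = 0.825) was -0.0010 without ZBTB16 library 2 and -0.19 without ZBTB16 library 3. DSCC1 (chromosome 8, 119833976 to 119856010, minus strand), a subunit needed for sister chromatid cohesion, was at 6.42, 6.49 and 5.80 FPKM with ZBTB16, against 7.69, 8.19 and 6.90 FPKM with empty vector. The groups did not overlap, and the difference of -17.8% was the widest of the 10 genes in percent. Its log2 fold change was -0.25 (SE 0.071, 95% interval -0.41 to -0.08), with a limma adjusted p of 0.236. DSCC1 was also the most thinly counted, at 258 to 356 reads per library, and its coefficient of variation was 6.06% among ZBTB16 libraries and 8.62% among empty-vector libraries.

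FEN1 and LIG1, the nuclease and the ligase of Okazaki fragment joining, were lower in every ZBTB16 library than in any empty-vector library, and lowest in the same one. FEN1 (chromosome 11, 61792637 to 61797244, plus strand) was at 46.2, 40.6 and 46.1 FPKM with ZBTB16, against 52.0, 51.2 and 52.0 FPKM with empty vector. The empty-vector libraries lay within a coefficient of variation of 0.927%, less than the 2.25% that counting gives, while ZBTB16 library 2 stood below the other 2 ZBTB16 libraries. The means were 44.3 ± 3.21 and 51.7 ± 0.480 FPKM (SD, n = 3 each), a difference of -14.5%. The log2 fold change was -0.22 (SE 0.057, 95% interval -0.35 to -0.09), with a limma adjusted p of 0.191, the smallest of the 10 genes.

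LIG1 (chromosome 19, 48115445 to 48170603, minus strand) was at 11.6, 10.1 and 12.2 FPKM with ZBTB16, against 12.9, 13.0 and 12.6 FPKM with empty vector. ZBTB16 library 2 was again the lowest, and the groups did not overlap. The log2 fold change was -0.17 (SE 0.067, limma adjusted p = 0.413), and -0.10 without ZBTB16 library 2. The ratio of LIG1 to FEN1 was 0.252, 0.249 and 0.264 with ZBTB16 and 0.247, 0.254 and 0.243 with empty vector, so in ZBTB16 library 2 both genes were low by a like amount. The ratio of FEN1 to PCNA was 0.212, 0.199 and 0.230 with ZBTB16 and 0.215, 0.219 and 0.226 with empty vector, and its groups overlapped. Exons of other genes cover 8.68% of FEN1, 10.6% of RFC5, 5.66% of CHTF18 and 2.72% of LIG1. In FEN1 these are TMEM258 on the opposite strand, over 6.70%, and FADS2 on the same strand, over 1.98%. Their means over the libraries were 20.1 and 36.5 FPKM. On the opposite strand, WSB2 at 20.7 FPKM covers 5.72% of RFC5, and RPUSD1 at 18.6 FPKM covers 2.40% of CHTF18. The other partners of RFC5, CHTF18 and LIG1 were under 1 FPKM. The strand setting of the counting is unknown here, and whether reads of these genes entered the values was not tested. The pseudogenes FEN1P1, RFC3P1 and RFC5P1 were at 0 in all libraries.

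**Figure D4:**
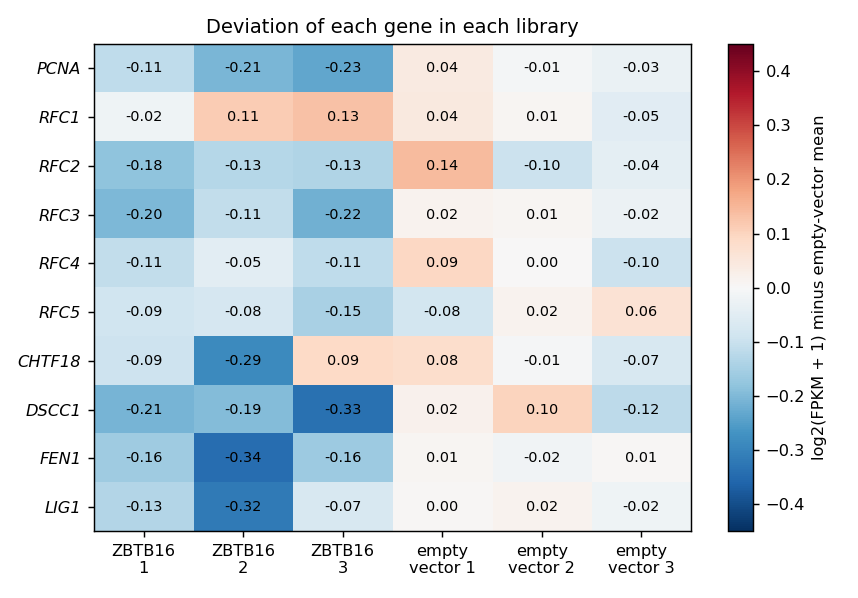
Deviation of log2(FPKM + 1) from the empty-vector mean of each gene, for 10 genes in 3 ZBTB16 and 3 empty-vector libraries. ZBTB16 library 2 has the lowest values for FEN1, LIG1 and CHTF18, and ZBTB16 library 3 for PCNA, DSCC1, RFC3, RFC4 and RFC5.

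No single ZBTB16 library was low throughout. Library 3 was the lowest of all 6 for 5 genes, library 2 for 3 and library 1 for 1, and the lowest RFC1 value was in empty-vector library 3. The median deviation over the 10 genes from the empty-vector mean was -0.12, -0.16 and -0.14 in ZBTB16 libraries 1 to 3 and 0.03, 0.01 and -0.04 in empty-vector libraries 1 to 3.

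The same values per length ordered the genes by level. PCNA was first in both groups, then FEN1, RFC2, RFC3, LIG1, RFC5 and RFC4, with RFC1, DSCC1 and CHTF18 last. With ZBTB16 the values of LIG1 and RFC5 overlapped, as did RFC1 with DSCC1 and DSCC1 with CHTF18. With empty vector the overlap was between CHTF18 and RFC1. The ratio of PCNA to RFC1 was 36.5, 30.8 and 29.7 in ZBTB16 libraries 1 to 3, and 38.7, 38.3 and 39.8 in empty-vector libraries 1 to 3, without overlap. Levels across genes depend on the length used: the deposited length merges all annotated exons, 2997 bases for RFC4, whose longest coding transcript has 1448. By that transcript RFC4 stood at 18.6 FPKM with ZBTB16 and 19.9 with empty vector, above RFC3 at 15.3 and 17.4, and LIG1 took place 4, at 18.8 and 21.4, an alternative chosen after seeing the data. PCNA, FEN1 and RFC2 kept places 1 to 3, and percent differences between groups do not depend on length.

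Genes with the profile most like that of PCNA were sought among 6696 protein-coding genes with a mean of at least 5 FPKM. Likeness was the root-mean-square distance between log2(FPKM + 1) profiles over the 6 libraries, each centred on its own mean. The nearest 5 were AURKA, OIP5, TMEM177, KIF4A and RBM17, at distances from 0.016 to 0.023. AURKA, a mitotic kinase, was at 33.7, 30.7 and 30.6 FPKM with ZBTB16 and at 36.4, 35.3 and 34.9 FPKM with empty vector. The nearest of the other 9 genes described here was RFC3 at place 149, with a distance of 0.055, and FEN1 was at place 350. RFC1 was at place 5561. These distances include counting error, and the places were not corrected for it. Counting alone gives a coefficient of variation of 3.91% for RFC3 and 1.36% for PCNA.

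Other genes of clamp handling were then read from lists of the same pathway, and with limma on log2(FPKM + 1) none passed over all genes. Of 6 tested genes of other loaders and the checkpoint clamp, 4 had negative and 2 positive fold changes, where 51.5% of all tested genes were negative. Their median log2 was -0.07. With limma 0 were called, against 0.008% of all tested genes called lower and 0.064% higher. At an unadjusted p under 0.05, 2 were lower, against 5.17% of all tested genes. Voom called 1 lower, against 0.832%. ATAD5, known for unloading PCNA from DNA, was at 1.74, 1.75 and 2.13 FPKM with ZBTB16, against 2.60, 2.83 and 2.29 FPKM with empty vector. Its groups did not overlap, and its log2 fold change was -0.31 (SE 0.087, limma adjusted p = 0.225). RAD9A, a subunit of the checkpoint clamp, was at 6.26 and 7.08 FPKM (limma adjusted p = 0.417), and RAD1 of the same clamp at 4.52 and 4.91 FPKM (limma adjusted p = 0.771), ZBTB16 before empty vector.

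CHTF8, the small partner of CHTF18 and DSCC1, did not share the lower mean of DSCC1. It was at 29.9, 28.1 and 31.0 FPKM with ZBTB16 and at 30.2, 28.5 and 29.6 FPKM with empty vector, a log2 fold change of 0.01 (limma adjusted p = 0.970). CHTF8 was named after its value was seen.

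Of 9 tested enzymes for primers, flaps and nicks, 7 had negative fold changes, against 51.5% of all tested genes, with a median log2 of -0.07. With limma 0 were called, against 0.008% of all tested genes called lower and 0.064% higher. At an unadjusted p under 0.05, 2 were lower, against 5.17% of all tested genes. Voom called 1 lower, against 0.832%. EXO1, an exonuclease related to FEN1, was at 5.65, 6.29 and 5.59 FPKM with ZBTB16, against 7.09, 7.48 and 7.13 FPKM with empty vector. The groups did not overlap. The log2 fold change was -0.27 (SE 0.059), and limma gave an adjusted p of 0.153. PARP1, which senses unligated nicks, was at 25.0 FPKM with ZBTB16 and 26.9 with empty vector (limma adjusted p = 0.476). LIG4, the ligase of end joining, was at 3.08 and 2.69 FPKM (limma adjusted p = 0.587), with overlapping groups. RNASEH2A, which helps remove primers, was listed at 0.128 to 0.213 FPKM with ZBTB16 and 0.0824 to 0.312 FPKM with empty vector and was not tested, being under the limit of 1 FPKM. Exons of another gene on the same strand, THSD8, cover 30.8% of it, and THSD8 itself had a mean of 0.0054 FPKM. RNASEH2A was named after its values were seen.

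Of 28 tested PCNA partners and modifiers, 20 had negative fold changes, against 51.5% of all tested genes, with a median log2 of -0.10. With limma 0 were called. At an unadjusted p under 0.05, 8 were lower and 1 higher, against 5.17% and 5.08% of all tested genes. Voom called 1 in each direction, against 0.832% lower and 0.816% higher. CDKN1A, the p21 inhibitor that binds PCNA, had the smallest p and went the other way, at 103, 109.8 and 104 FPKM with ZBTB16 and at 93.1, 88.1 and 87.6 FPKM with empty vector. Its log2 fold change was 0.23 (SE 0.046, limma adjusted p = 0.116). TRAIP, a replisome ubiquitin ligase, was at 3.37 FPKM with ZBTB16 and 4.30 with empty vector (log2 -0.28, limma adjusted p = 0.175). CHAF1A, a PCNA-bound histone chaperone subunit, was at 10.1 and 11.8 FPKM (log2 -0.21, limma adjusted p = 0.180).

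Set beside its neighbours at the fork, the group of clamp, loader and Okazaki genes had a median log2 of -0.16. The helicase genes MCM2 to MCM7 had a median of -0.21, with 6 of 6 negative. The 15 polymerase, primase and RPA genes had a median of -0.09, with 14 negative, where 51.5% of all tested genes were negative. In each of these lists 0 genes passed over all genes with limma. At an unadjusted p under 0.05, 5 MCM genes and 5 of the polymerase list were lower, against 5.17% of all tested genes. Voom called 5 MCM genes and 0 of the polymerase list lower, against 0.832% of all tested genes. The differences between the lists were not tested.

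**Figure D5:**
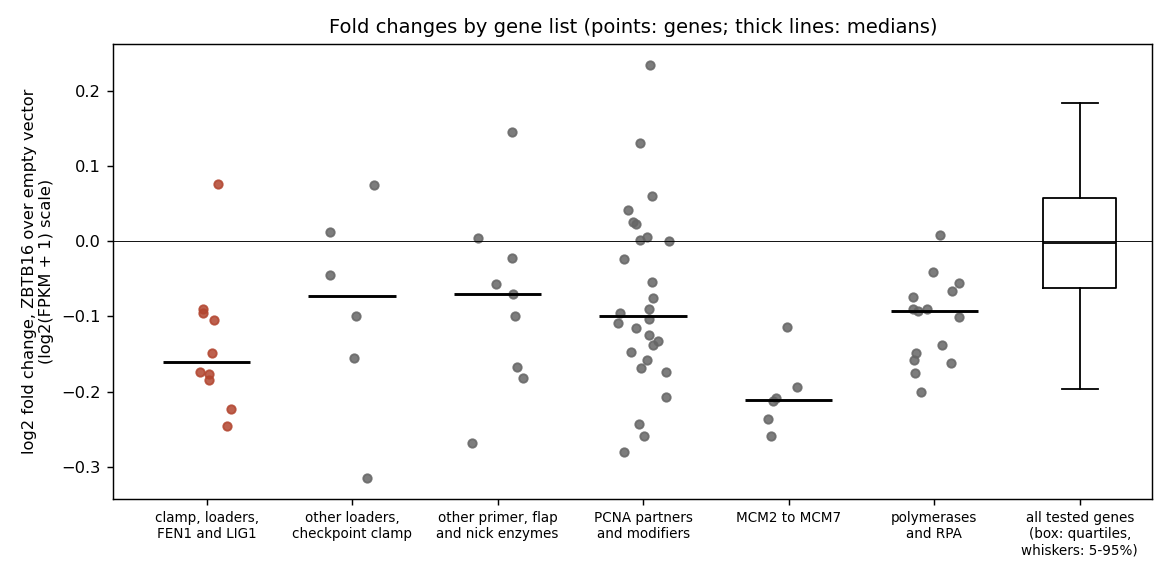
Log2 fold change of each tested gene by list, ZBTB16 over empty vector on the log2(FPKM + 1) scale, with list medians as thick lines and the quartiles and 5 to 95% range of all tested genes as a box. The 10 clamp, loader and Okazaki genes have a median of -0.16, between those of MCM2 to MCM7 at -0.21 and of the polymerases and RPA at -0.09.

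The calls depended on the model. With limma voom on the reads recovered from FPKM, 2 of the 10 genes were lower over all genes, PCNA (log2 -0.19, adjusted p = 0.0368) and FEN1 (log2 -0.24, adjusted p = 0.0271), where 0.832% of tested genes were called lower and 0.816% higher. In that fit ATAD5, EXO1 and the PCNA partner UHRF1 were lower as well and CDKN1A higher, at limma voom adjusted p of 0.0217, 0.0398, 0.0400 and 0.0119. UHRF1 was named after its value was seen.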

How the data were processed

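RNA sequencing of A549 cells gave 3 ZBTB16 and 3 empty-vector libraries, grouped and numbered by their titles. The authors deposited FPKM for 58735 genes, with gene length and position per the file headers. HISAT2 2.0.5 and hg38 are named in the submitters' processing notes. For the counter, strand setting and filters, nothing is given in the sources used here. All positions and merged exon lengths equal those of GENCODE 29. Multiplied by length, 100% of the deposited FPKM values came out within 0.01 of a whole number of reads at a single step size per library, which gave back the reads.

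Genes with a mean of at least 1 FPKM, 12499 in all, were compared on the log2(FPKM + 1) scale by limma 3.58.1, run in R 4.3.3 (trended robust prior, no covariate), two-sided, with Benjamini-Hochberg adjustment and a threshold of 0.05. The scale understates changes of low genes. Single genes also had an exact permutation test. Depth limits precision through counting error, given beside the genes.

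The genes and lists were chosen with earlier results of these data known. Named are the 10 genes, ZBTB16, called members or the 3 smallest p of 3 related lists, copies, the top marker of each cell type and the 5 profiles nearest PCNA. Alternatives were other pseudocounts, filters, scalings and priors, limma voom, a block on repeat number, and fits without each library in turn. The fit was tested on simulated reads, with a spread between libraries that was set and not fitted to these data. It recovered 22 of 49 genes changed 1.25-fold and 42 of 50 genes changed 1.5-fold. Changes under 1.25-fold were not simulated. The widest difference of the 10 genes, -17.8% for DSCC1, is smaller than that, so recovery at the sizes seen for them is not known. Plots came from matplotlib 3.10.9 (Python 3.11.15), and promoter sequences come from RefSeq.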

Additional observations from a re-analysis of the deposited data

How the results depend on the processing

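The sign of each of the 10 genes was the same in all 16 alternative fits, and 158 of the 160 values stayed on the same side of the threshold. The exceptions were PCNA and FEN1, called lower with limma voom on recovered reads, so that 2 of the 10 were called lower there and 0 in the other fits. Their limma adjusted p ranged from 0.0368 to 0.540 for PCNA and from 0.0271 to 0.578 for FEN1 over the alternatives. The median log2 fold change of the 10 genes ranged from -0.18 to -0.14. The number of all genes called higher and lower moved more: 102 and 104 with voom, 13 and 3 with quantile normalization, 56 and 33 on protein-coding genes, 44 and 31 where means reached 5 FPKM, and 1 and 0 both unfiltered and under a constant prior, against 8 and 1 in the report. A pseudocount of 0.1 gave 2 lower genes. The cause was not tested. With a library left out 1 to 6 genes were higher, 0 to 2 lower, and 0 of the 10 in either direction. Repeat numbers were not shown to pair the libraries (correlation across genes 0.07, 0.05 and -0.04 for equal numbers). With the repeat number as a block 12 genes were higher and 3 lower, with 0 of the 10 called. With a library left out, the log2 difference of the RFC3 to RFC1 ratio ranged from -0.32 to -0.22. At 258 to 356 reads a library for DSCC1, counting alone gives a coefficient of variation of 5.78%.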
